A study of Saccharomyces cerevisiae with 117 samples.

Results

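Among the glucose-starved (GS) yeast cells of batch 2, 21 single cells numbered Y507 to Y532 were divided by their reads of ICL1 (YER065C), the gene of isocitrate lyase. Reads were scaled to CPM, the count of a gene for every 1e+06 reads on genes, and a cell with more than 100 CPM of ICL1 was called ICL1-high. This gave 13 ICL1-high cells and 8 ICL1-low cells, out of 47 GS cells and 117 cells in the series. The groups were therefore chosen by a measured gene of the same cells, so ICL1 itself was left out of every comparison and what follows describes these cells and tests nothing. Each sample was 1 cell and no separate cultures were named, so each group counted as 1 sample, and the errors given are the spread over cells or counting intervals.

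All the cells came from 1 clone of strain S288C, a laboratory strain of Saccharomyces cerevisiae. Their walls had been digested with Zymolyase, which leaves spheroplasts, and they were kept in a synthetic medium with 1 M sorbitol as osmotic support. ICL1-high and ICL1-low cells had the same treatment, this medium without glucose, while the isotonic cells of batch 2 (19 cells) were in the medium with glucose. Per the labels, the exposure lasted at least 30 min and up to 5 h, without a time for each cell, while the study's methods give a shorter upper limit. A cell that was starved for longer cannot be told apart from one that responded more. Cells were picked one by one with a pipette and their full-length cDNA was sequenced.

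Isocitrate lyase starts the glyoxylate cycle, a shortcut through the tricarboxylic acid (TCA) cycle that bypasses its CO2-releasing steps. With it, yeast can build sugars and amino acids from acetate or ethanol, and the cycle is needed only when no better carbon source is present. While glucose is plentiful, ICL1 and many genes for respiration and for other carbon sources are repressed. When glucose is lost, the kinase Snf1 becomes active, the repressor Mig1 leaves the nucleus, and the activators Cat8, Sip4 and Adr1 switch these genes on. Cat8 and Sip4 bind the carbon source-responsive element (CSRE), a short sequence upstream of ICL1 and of several genes of gluconeogenesis and acetate use.

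The coding sequence of ICL1 lies on the minus strand of chromosome V, from base 285241 to base 286914 in the RefSeq annotation of build R64. A published CSRE consensus was searched on both strands in the 600 bases before the start codon of 5980 protein-coding genes, and 32 genes (0.535%) held a match. They included ICL1, MLS1, MDH2, ACS1, ADY2, YAT1, PCK1 and FBP1, whose products are described below with their levels. One match of each is printed here to show what these genes of the pathway share with ICL1, whether or not their levels differed between the groups. Each sequence is read 5′ to 3′ on the strand of the gene, with the match in capitals and 25 bases on either side.
ICL1: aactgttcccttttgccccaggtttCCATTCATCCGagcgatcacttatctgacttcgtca
MLS1: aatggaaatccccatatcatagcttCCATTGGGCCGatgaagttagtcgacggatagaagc
MDH2: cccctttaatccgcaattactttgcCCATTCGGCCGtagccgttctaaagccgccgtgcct
ACS1: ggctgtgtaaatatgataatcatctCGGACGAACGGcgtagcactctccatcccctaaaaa
ADY2: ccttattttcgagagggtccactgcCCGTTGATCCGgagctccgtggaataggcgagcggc
YAT1: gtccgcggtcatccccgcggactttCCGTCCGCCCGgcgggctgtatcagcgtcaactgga
PCK1: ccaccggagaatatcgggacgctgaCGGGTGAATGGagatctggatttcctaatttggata
FBP1: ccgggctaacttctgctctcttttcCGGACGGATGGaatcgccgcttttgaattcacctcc
In build R64 these stretches lie at chrV:287277-287337 (ICL1), chrXIV:405833-405893 (MLS1), chrXV:83262-83322 (MDH2), chrI:45412-45472 (ACS1), chrIII:133600-133660 (ADY2), chrI:190032-190092 (YAT1), chrXI:630565-630625 (PCK1) and chrXII:875261-875321 (FBP1). The match began 398 bases before the start codon in ICL1, 500 in MLS1 and 377 in MDH2. It was read on the opposite strand in ACS1, PCK1 and FBP1. A match describes the letters only and does not show that a factor was bound in these cells.

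The level of ICL1, which chose the groups, spanned the ICL1-high cells from 157 CPM (Y530) and 165 CPM (Y526) over a median of 2312 CPM to 9671 CPM (Y522). In the ICL1-low cells it went from 0 CPM (Y511) over a median of 0.927 CPM to 5.67 CPM (Y531), and no ICL1-low cell held more than 5 reads of the gene. No cell lay between 5.67 and 157 CPM, so any threshold inside that gap gives the same groups. In the isotonic cells 1 of 19 had a read of ICL1 (12 CPM in Y713). The plot of ICL1 by cell shows that the ICL1-high cells differed widely among themselves.

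Depth did not separate the groups. Reads on genes ranged from 1002257 to 2535593 in ICL1-high cells (median 1676618) and from 705807 to 2299471 in ICL1-low cells. Genes with at least 1 read numbered 967 to 1662 in ICL1-high cells (median 1212, mean 1300 ± 233, SD, n = 13) and 1113 to 1559 in ICL1-low cells (median 1332.5, mean 1311 ± 140, SD, n = 8). The medians thus differed by -120.5 genes, ICL1-high minus ICL1-low. With at least 5 reads per gene the medians were 934 and 850.5 genes, so the difference turned to 83.5. Among the cells, Y531 and Y524, both ICL1-low, stood apart: 87.9% and 71.6% of their gene and spike-in reads were on ERCC spike-in RNA, and only 385 and 489 genes had at least 5 reads. The ERCC share was also high in Y522, an ICL1-high cell, at 74.7%, but 762 of its genes had at least 5 reads. In Y531, 49.3% of the reads on genes fell on 10 genes. The part of the ERCC share in the results below was not tested. Counts without these cells are given beside the glyoxylate, acetate, glycolysis, cell wall and ribosomal protein lists.

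**Figure D1:**
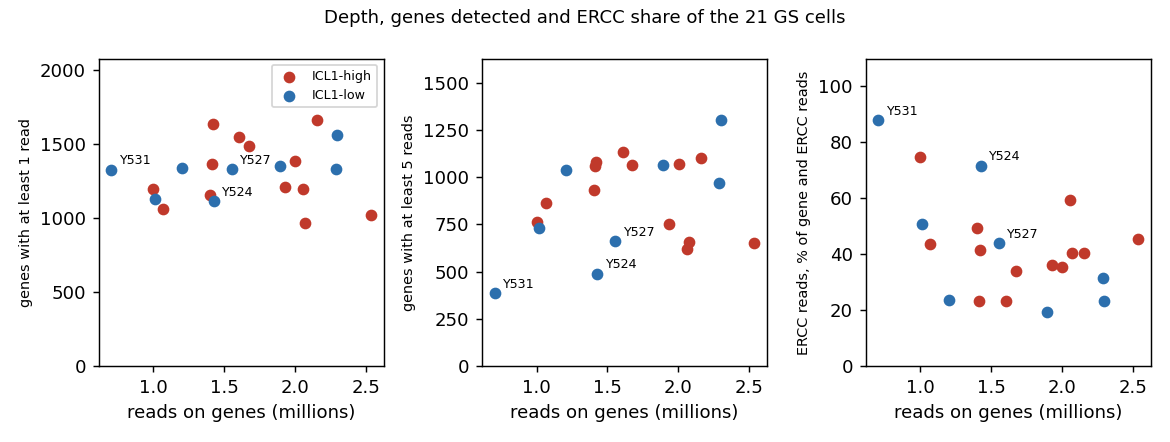
Genes with at least 1 read, genes with at least 5 reads and the ERCC share against reads on genes for the 13 ICL1-high cells (red) and the 8 ICL1-low cells (blue). The groups overlap in all 3 panels, and Y531 and Y524 combine few genes at 5 reads with ERCC shares of 87.9% and 71.6%.

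Reads of mating type alpha were found in both groups. S288C is of mating type alpha, and MF(ALPHA)1, the gene of the alpha pheromone, exceeded 100 CPM in 7 ICL1-high and 5 ICL1-low cells. The other alpha genes were seldom read: MF(ALPHA)2 exceeded 100 CPM in 3 ICL1-high cells, SAG1 in 1 ICL1-high cell and STE3 in 0 cells. Mating type alone does not identify the strain. The genes of mating type a had 0 reads in all 21 cells. Of the sporulation genes, 1 (REC8) exceeded 100 CPM in an ICL1-high cell and 0 did so in ICL1-low cells.

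Genes entered the comparison when at least 20% of the 21 cells held a read of them, which left 2184 genes besides ICL1. The size of a difference is the log2 ratio of mean CPM + 1 in ICL1-high cells over that in ICL1-low cells, and the median over all genes compared was 0.42. By this measure 903 genes (41.3%) were at least 2-fold higher in ICL1-high cells and 605 (27.7%) at least 2-fold lower. In single cells of this kind a gene is often read strongly in a few cells and not at all in the rest. No gene other than ICL1 had groups that did not overlap. A second measure was therefore used, the share of the 104 pairs of an ICL1-high and an ICL1-low cell in which the ICL1-high cell had the higher CPM, with ties split evenly. This share was at least 80% for 22 genes (1.01%) and at most 20% for 12 genes (0.549%), and its median was 50%. The mean correlation of log2(CPM + 1) between 2 cells was 0.217 within ICL1-high cells, 0.219 within ICL1-low cells and 0.208 between the groups, a description over 2184 genes that share their libraries.

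The glyoxylate cycle genes other than ICL1 were higher in ICL1-high cells. Of 8 on the list, 6 could be compared, and all 6 lay 2-fold or more above ICL1-low cells (median log2 ratio 1.67). Over all genes compared, 41.3% did so, with a median of 0.42. Their summed level had a median of 9956 CPM in ICL1-high cells (17 to 21140 CPM) and of 2289 CPM in ICL1-low cells (470 to 7316 CPM), and the ICL1-high cell was above in 86.5% of pairs. Without Y524 and Y531, 4 of the 6 genes were at least 2-fold higher and the median was 1.32. In that setting 887 of all 2184 genes were at least 2-fold higher and 618 lower.

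MDH2, the cytosolic malate dehydrogenase that turns the malate of the cycle into oxaloacetate, had 0 to 8800 CPM in ICL1-high cells (median 2455 CPM) and 0.43 to 2364 CPM in ICL1-low cells (median 1.36 CPM). It exceeded 100 CPM in 10 of 13 ICL1-high cells and in 1 of 8 ICL1-low cells, Y524, and the ICL1-high cell was above in 87.5% of pairs (log2 ratio 3.39). Without Y524 the log2 ratio was 10.34.

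MLS1, the malate synthase that follows isocitrate lyase in the cycle, ranged from 1.03 to 8079 CPM in ICL1-high cells (median 303 CPM) and from 0 to 4743 CPM in ICL1-low cells (median 1.14 CPM). More than 100 CPM was seen in 8 of 13 and 3 of 8 cells, and the log2 ratio was 1.82. CIT2, the peroxisomal citrate synthase, was widespread in both groups: it exceeded 100 CPM in 12 of 13 ICL1-high cells and 6 of 8 ICL1-low cells, with medians of 1029 and 397 CPM (log2 ratio 1.33). MDH3, the peroxisomal malate dehydrogenase, passed 100 CPM in 6 of 13 ICL1-high and 2 of 8 ICL1-low cells, at a log2 ratio of 1.17, and its groups overlapped over nearly the whole range.

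Genes for the use of acetate, ethanol, glycerol and lactate were more often higher than lower in ICL1-high cells. All 20 could be compared, and the median log2 ratio was 1.75. In ICL1-high cells 14 were at least 2-fold higher, 5 were within 2-fold and 1 was lower. Over all genes compared, 41.3% were higher and 27.7% lower, with a median of 0.42. GUT1, counted among the 14, had no reads in ICL1-low cells, so its direction followed from the filter. The summed level was 18804 to 98456 CPM in ICL1-high cells (median 32895 CPM) and 136 to 36340 CPM in ICL1-low cells (median 9811 CPM), with the ICL1-high cell above in 88.5% of pairs. Counted by genes, 7 to 18 of the 20 exceeded 100 CPM in an ICL1-high cell (median 13) and 0 to 12 in an ICL1-low cell (median 7). Isotonic cells had a median sum of 1975 CPM and a median of 2 such genes. Without Y524 and Y531, 14 genes were still at least 2-fold higher (median log2 ratio 1.54). The median depended on the threshold of the split, and was 0.45 at 200 CPM and 0.44 at 500 CPM.

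**Figure D2:**
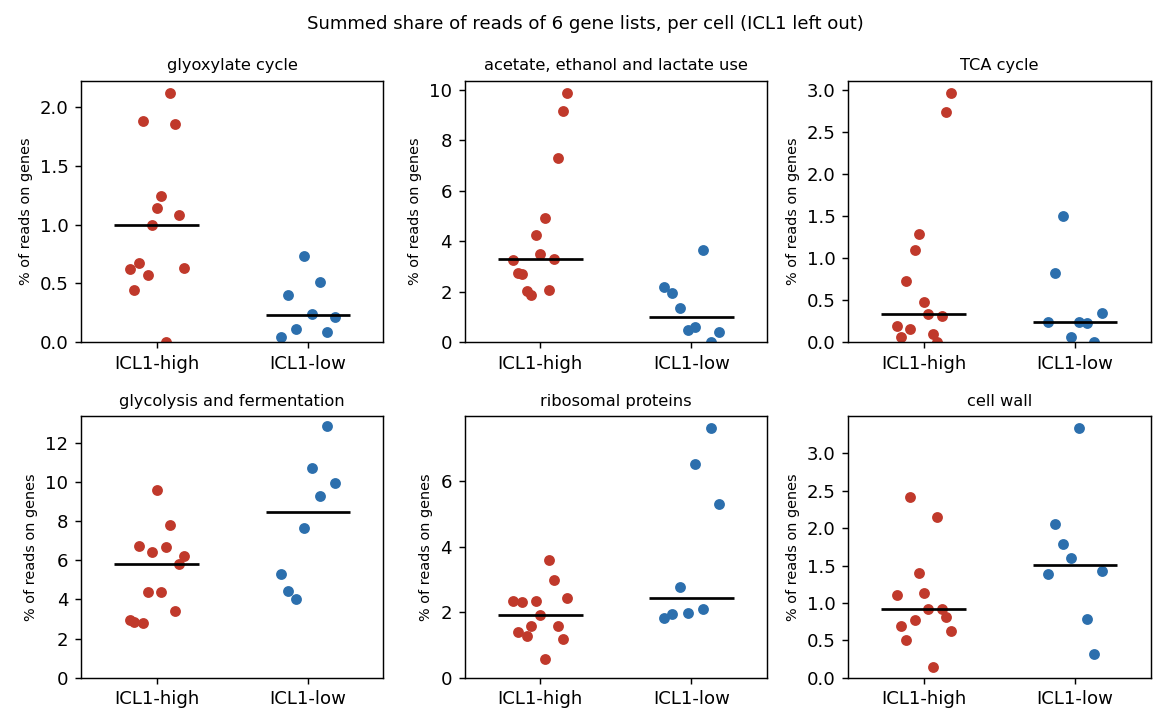
Share of each cell's reads on genes that fell on the members of 6 gene lists, with ICL1 left out, for 13 ICL1-high cells (left, red) and 8 ICL1-low cells (right, blue), with the median as a line. Acetate, ethanol and lactate genes took 1.88% to 9.85% of the reads in ICL1-high cells and 0.0136% to 3.63% in ICL1-low cells, and every panel overlaps.

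YAT1, a carnitine acetyltransferase that moves acetyl units between compartments, was the most separated of these genes. It had 8.27 to 18489 CPM in ICL1-high cells (median 6732 CPM) and 0.87 to 6234 CPM in ICL1-low cells (median 70.2 CPM). It exceeded 100 CPM in 12 of 13 ICL1-high cells, the exception being Y521, and in 4 of 8 ICL1-low cells, and the ICL1-high cell was above in 88.5% of pairs (log2 ratio 2.48). CAT2, the other main carnitine acetyltransferase, exceeded 100 CPM in 8 of 13 and 3 of 8 cells, with medians of 710 CPM and 13.4 CPM (log2 ratio 4.47).

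ADH2, the alcohol dehydrogenase that oxidises ethanol, had a median of 4297 CPM in ICL1-high cells (3.11 to 35946 CPM) and of 16.1 CPM in ICL1-low cells (2.62 to 17553 CPM). It exceeded 100 CPM in 10 of 13 ICL1-high cells and in 1 of 8 ICL1-low cells, Y527, at a log2 ratio of 2.05 that became 8.57 without Y527. STL1, the glycerol importer, had medians of 1814 CPM and 194 CPM (log2 ratio 1.84) and passed 100 CPM in 10 of 13 ICL1-high and 4 of 8 ICL1-low cells. For both genes the separation lies in how many cells read them strongly, since the strongest cells of the groups overlap.

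The following genes of this list were named after their values had been seen. ACS1, the acetyl-CoA synthetase of respiring cells, had 7.50 to 19705 CPM in ICL1-high cells (median 376 CPM) and 0 to 3210 CPM in ICL1-low cells (median 5.18 CPM), exceeded 100 CPM in 12 of 13 and 2 of 8 cells, and had a log2 ratio of 2.21. ADY2, an acetate transporter, exceeded 100 CPM in 11 of 13 and 2 of 8 cells (medians 924 and 3.54 CPM, log2 ratio 1.56). ALD4, the mitochondrial aldehyde dehydrogenase that makes acetate, did so in 12 of 13 and 4 of 8 cells (medians 2341 and 160 CPM, log2 ratio 1.54). All 3 genes were read in every ICL1-high cell.

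IDP2, GUT1 and JEN1 were likewise named after their values had been seen. IDP2, the cytosolic isocitrate dehydrogenase that makes NADPH, was higher in the ICL1-high cell in 83.2% of pairs. It had 0 to 4634 CPM in ICL1-high cells (median 701.1 CPM) and at most 2.83 CPM in ICL1-low cells, from 24582 summed reads against 6 (95% exact Poisson interval 2.2 to 13.1, counting error only). It was read in 10 of 13 ICL1-high cells (76.9%, 95% exact Clopper-Pearson interval 46.2% to 94.96%) and in 3 of 8 ICL1-low cells (37.5%, 8.52% to 75.5%). GUT1, the glycerol kinase, had 8774 reads over 9 ICL1-high cells and 0 reads in all 8 ICL1-low cells. Set against a floor of 3 reads over the group, it was at least 1621-fold higher in ICL1-high cells per read on genes. Of the 2184 genes compared, 31 had 0 reads in ICL1-low cells and 0 had none in ICL1-high cells. The filter is passed more easily by reads in 13 cells alone than in 8 cells alone, so these 2 counts cannot be set against each other. Such a gene passed the filter on reads through ICL1-high cells alone, so its direction follows from the filter and its bound is a description. The PCR reads of 1 cell are not independent molecules, so these intervals and the floor are narrower than the true error. JEN1, the lactate transporter, exceeded 100 CPM in 11 of 13 ICL1-high cells and in 3 of 8 ICL1-low cells. Those 3 (Y508, Y511 and Y512) had 4221 to 4679 CPM, so the groups differed in the number of such cells but little in the mean (log2 ratio 0.30).

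Cell numbers fall into 2 runs that differed in quality: Y507 to Y518 (8 ICL1-high and 4 ICL1-low cells) had 731 to 1302 genes with at least 5 reads, and Y521 to Y532 (5 and 4 cells) had 385 to 970. Whether these runs were prepared apart is not stated. The median log2 ratio of the glyoxylate list was 1.31 in the first run and 2.82 in the second, and that of the acetate, ethanol and lactate list 1.66 and 4.75. The cell wall list had medians of -1.87 and -0.19. The ribosomal protein list had 0.20 in Y507 to Y518 and -0.61 in Y521 to Y532, so its direction did not hold in the first run.

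**Figure D3:**
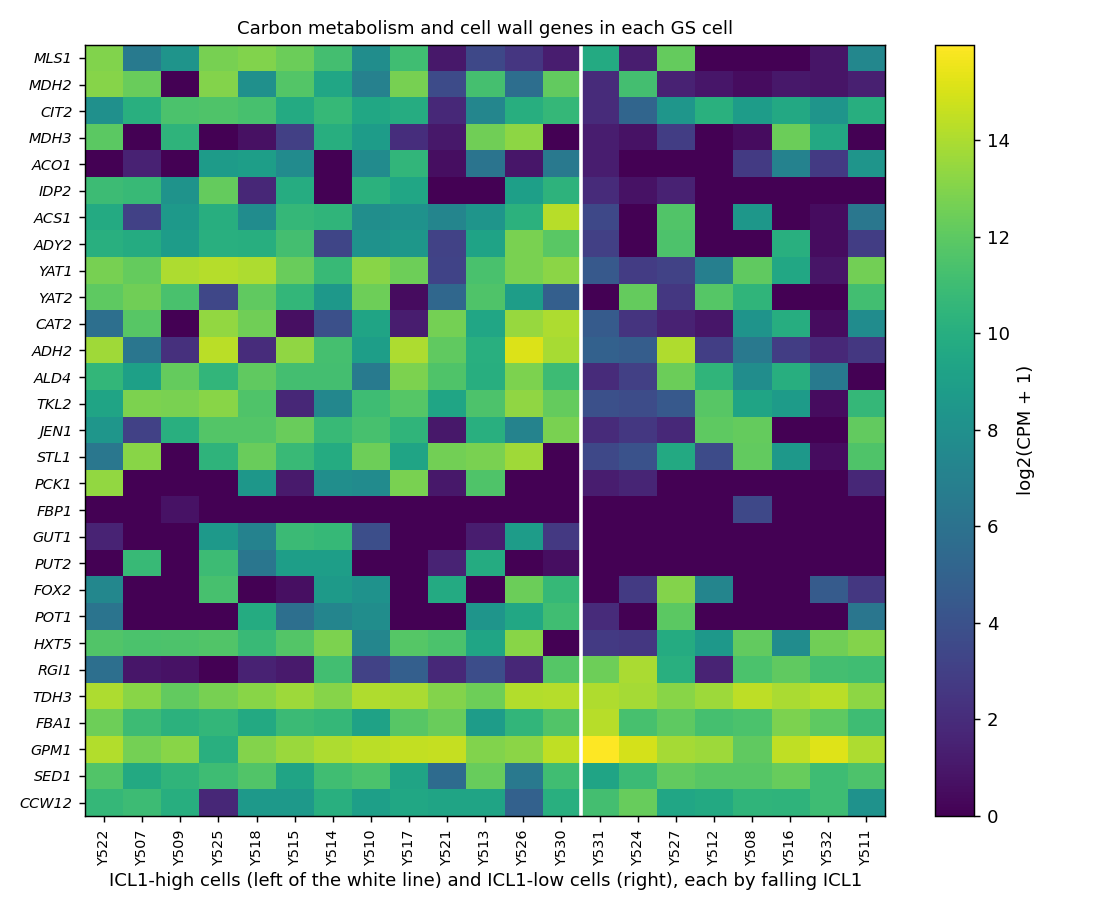
log2(CPM + 1) of carbon metabolism and cell wall genes (rows) in each GS cell (columns), ICL1-high cells left and ICL1-low cells right of the white line, each by falling ICL1. MDH2, IDP2, YAT1 and GUT1 are mostly bright or present on the left and dark on the right, RGI1 the reverse, and Y527 and Y521 stand against their groups.

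Individual cells departed from their groups. Y527 was ICL1-low at 1.93 CPM, yet had 17553 CPM of ADH2, 3210 CPM of ACS1, 2892 CPM of ADY2, 4743 CPM of MLS1 and 8152 CPM of FOX2, the highest value of each among ICL1-low cells. Y521 was ICL1-high at 864 CPM, yet its glyoxylate cycle genes summed to 16.5 CPM, the lowest of the 21 cells, with at most 11 CPM of MLS1, MDH2, CIT2 or YAT1. The groups by ICL1 are thus not groups by every gene of the same pathway.

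The ICL1-high cells just above the threshold, Y530 and Y526, did not have the lowest levels of the other genes. Y526 had the highest ADH2 (35946 CPM) and ADY2 (7056 CPM) of the 21 cells, and Y530 the highest ACS1 (19705 CPM) and CAT2 (16584 CPM). Their summed acetate, ethanol and lactate genes, 98456 CPM in Y530 and 91411 CPM in Y526, were the highest of all. With the threshold moved to 200 CPM, which places both cells among the ICL1-low cells, the log2 ratios became -2.06 for ACS1, -0.98 for ADY2, -0.23 for CAT2 and -0.13 for ADH2. Those 4 differences therefore rest in direction on where these 2 cells are counted. Under the same threshold the ratio of MDH3 became -0.46, that of KGD1 -4.52 and that of ECI1 -3.83.

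Of the genes compared, 17 held a CSRE match before the start codon. At least 2-fold higher in ICL1-high cells were 10 of these, 2 were at least 2-fold lower and 5 were neither, and their median log2 ratio was 1.82, beside 41.3%, 27.7% and 0.42 over all genes compared. The ICL1-high cell was above in at least 80% of pairs for 4 of the 17, MDH2, YAT1, ACS1 and ADY2, beside 1.01% of all genes. The lower genes were PST1 and LAM4. SIP4, the gene of a CSRE-binding activator and itself among the genes with a match, had 471 reads over 6 ICL1-high cells (highest 115 CPM in Y510) and 0 reads in ICL1-low cells, which against the floor of 3 reads makes it at least 87.0-fold higher. Like GUT1, it passed the filter through ICL1-high cells alone, so its direction in the count of 10 followed from the filter. Some matches lie between 2 neighbouring genes and were counted for each, as before MLS1 and DCP2, so genes with a match are not all separate sites. The level of ICL1 was used to choose the groups and several of these genes are on the lists above, so the count is no separate evidence.

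Gluconeogenesis genes were divided among themselves. Of 7 compared, 3 were at least 2-fold higher, 2 lower and 2 neither, and the median log2 ratio was 0.38. These lay close to the 41.3%, 27.7% and median of 0.42 over all genes compared. PCK1, the phosphoenolpyruvate carboxykinase that begins gluconeogenesis from oxaloacetate, was at 206.5 to 10589 CPM in 6 ICL1-high cells, at 1.19 CPM in the median ICL1-high cell, and at no more than 2.49 CPM in any ICL1-low cell (log2 ratio 9.87). It was read in 8 of 13 and 3 of 8 cells. FBP1, the fructose-1,6-bisphosphatase, had 1 read in ICL1-high cells and 23 in ICL1-low cells, all in Y508, so its level was too low to compare. PYC1, a pyruvate carboxylase, had medians of 342 and 74.4 CPM (log2 ratio 1.29). PYC2, its paralog, had a log2 ratio of -1.27 that rested on 14515 CPM in Y524 and became 6.05 without that cell. VID24, needed for the breakdown of gluconeogenic enzymes once glucose returns, had a log2 ratio of 0.38, was above 100 CPM in 2 cells of each group and reached -5.59 without Y526. Without Y532 the median of the list was 3.18.

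Of 16 TCA cycle genes, 8 were at least 2-fold higher and 2 lower, near the 41.3% of all genes for the higher side, with a median log2 ratio of 1.29. The median was -0.095 with the threshold of the split at 200 CPM and 0.14 at 500 CPM, so its direction rests on Y526 and Y530. SDH4, a membrane anchor of succinate dehydrogenase named after its values were seen, was read in 9 of 13 ICL1-high cells and 1 of 8 ICL1-low cells, at medians of 52.0 and 0 CPM and at most 181 CPM. KGD1, of the 2-oxoglutarate dehydrogenase complex, had a log2 ratio of 3.78, carried by Y530 (17675 CPM) and Y526 (7956 CPM), and 9.47 without Y508, the one ICL1-low cell above 100 CPM. CIT3 and SDH3 had log2 ratios of 0.97 and 0.30, that of SDH3 becoming 6.95 without Y512, and MDH1, the mitochondrial malate dehydrogenase, one of -1.98. The summed TCA level was 66 to 29603 CPM in ICL1-high cells (median 3414 CPM) and 25.5 to 15055 CPM in ICL1-low cells (median 2437 CPM), and the ICL1-high cell was above in 57.7% of pairs. In the respiratory chain and ATP synthase, 14 of 33 were 2-fold or more higher and 4 lower, at a median of 0.52, close to the 41.3% and the median of 0.42 over all genes.

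In peroxisomal beta-oxidation, 3 of 9 were 2-fold or more higher and 0 lower, and the median was 0.50. Over all genes compared, 41.3% were higher and 27.7% lower, with a median of 0.42. ECI1, an enoyl-CoA isomerase, exceeded 100 CPM in 4 of 13 ICL1-high cells and stayed at or under 7.08 CPM in ICL1-low cells (log2 ratio 8.82). FOX2 and POT1, the enzymes of the later steps, had log2 ratios of -0.27 and -0.49. In both, Y527 alone carried the ICL1-low mean, with 8152 CPM of FOX2 and 3988 CPM of POT1, and without Y527 the median of the list became 4.88. FAA2, a medium-chain acyl-CoA synthetase, had a log2 ratio of 0.93 that became 5.54 without Y512.

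The regulators themselves gave no clear direction, and most were read too seldom to compare. SIP4, described above, is on this list and was read in ICL1-high cells alone. Only 10 of 26 genes passed the filter, of which 4 were at least 2-fold higher and 3 lower, and the median log2 ratio was 0.01. The shares over all genes compared were close, at 41.3% and 27.7%. SNF1, the kinase of derepression, had a log2 ratio of -0.05, SNF4, its activating subunit, one of -1.33, ADR1 one of -0.77 and CAT8 one of 0.07. CAT8 exceeded 100 CPM in 2 of 13 and 1 of 8 cells, and without that ICL1-low cell, Y511, its ratio was 7.57 and the median of the list 3.87.

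**Figure D4:**
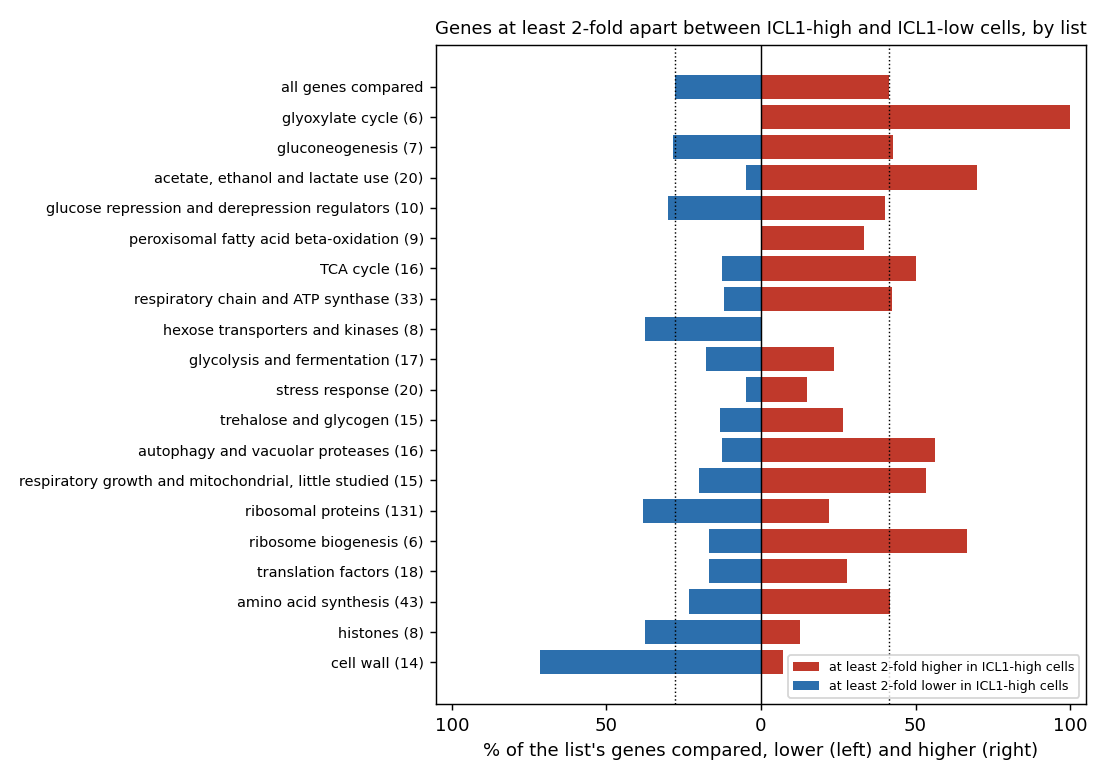
Share of the genes compared that were at least 2-fold higher (right, red) or lower (left, blue) in ICL1-high than in ICL1-low cells, for each list of at least 5 genes compared (number in brackets). The dotted lines mark the shares over all 2184 genes, 41.3% and 27.7%. The glyoxylate list reaches farthest on the higher side and the cell wall list on the lower side, and the hexose list has no gene on the higher side.

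The lists of glucose uptake and glycolysis had medians below 0, that of glucose uptake only under some settings. None of 8 hexose transporters and kinases was at least 2-fold higher, and 3 were at least 2-fold lower (median log2 ratio -0.46). The shares over all genes compared were 41.3% and 27.7%. The median of the hexose list was 0.29 with the top cell of either group left out, 0.13 with no filter on reads and 1.43 in Y521 to Y532 alone. HXT5, a transporter of moderate affinity that is made when growth slows, was high in both groups, with medians of 2890 and 639 CPM and more than 100 CPM in 12 of 13 and 6 of 8 cells (log2 ratio 0.31). HXK1, HXT2 and HXT3 had log2 ratios of -0.73, -1.65 and -0.18, and without Y512 and Y508 those of HXT2 and HXT3 became 1.34 and 7.0.

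Of 17 glycolytic and fermentation genes, 4 were at least 2-fold higher, 3 lower and 10 neither (median log2 ratio -0.38), beside 41.3% higher and 27.7% lower of all genes. As a share of all reads, the list took 2.77% to 9.59% in ICL1-high cells and 4.03% to 12.9% in ICL1-low cells, and the ICL1-high cell was above in 25% of pairs. Y531 and Y524 had the highest sums of the 21 cells, and without them 3 genes were at least 2-fold higher and 0 lower (median -0.32). TDH3, a glyceraldehyde-3-phosphate dehydrogenase, had 4513 to 18888 CPM in ICL1-high cells (median 9040 CPM) and 9050 to 21641 CPM in ICL1-low cells (median 15394 CPM). GPM1, the phosphoglycerate mutase, had medians of 12186 and 19563 CPM (log2 ratio -0.89). ENO1 and TDH2 had log2 ratios of -0.39 and -0.34.

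FBA1, the aldolase of glycolysis, was named after its values were seen as one of the 12 genes at or below 20% of pairs. It had 454 to 5589 CPM in ICL1-high cells (median 1568 CPM) and 2110 to 19701 CPM in ICL1-low cells (median 3529 CPM), a log2 ratio of -1.34, and the ICL1-high cell was above in 19.2% of pairs. All 21 cells had more than 100 CPM of FBA1, TDH3 and GPM1, so these values rest on many reads in each cell. The highest FBA1 and GPM1 values (19701 and 64713 CPM) were in Y531, the cell with the fewest genes at 5 reads or more.

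RGI1, a gene of unknown biochemical function that is needed for respiratory growth, was lower in most ICL1-high cells. It had 0 to 3495 CPM in ICL1-high cells (median 2.59 CPM) and 1.97 to 15931 CPM in ICL1-low cells (median 2585 CPM). It exceeded 100 CPM in 2 of 13 ICL1-high cells and 7 of 8 ICL1-low cells, the exception being Y512, and the ICL1-high cell was above in 13.5% of pairs (log2 ratio -3.25). Its list, of little-studied mitochondrial and respiratory genes, had 8 of 15 genes at least 2-fold higher and 3 lower, beside 41.3% and 27.7% of all genes. By the summed level of the list, the ICL1-high cell was above in 51.0% of pairs. PUT2, the mitochondrial enzyme of proline breakdown, was named after its values were seen. It had 10186 reads over 8 ICL1-high cells and 0 in ICL1-low cells, at least 1882-fold higher against the floor of 3 reads. It too passed the filter through ICL1-high cells alone, so its direction in any count followed from the filter. PUT4, the proline permease, had a log2 ratio of 1.16, OM45, of the outer mitochondrial membrane, one of 0.23, and FMP16 one of -1.17 that became 0.53 without Y524.

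Of 14 cell wall genes, 10 were at least 2-fold lower in ICL1-high cells and 1 was higher, beside 27.7% and 41.3% of all genes. The median log2 ratio was -1.35. By pairs of cells the list differed less, with a median share of 44.7% over its genes and 0 genes at or below 20%. In these spheroplasts the wall had been digested, and the genes were still read. SED1, a major wall protein, had medians of 2051 and 3283 CPM (log2 ratio -0.72), CCW12 medians of 655 and 1395 CPM (log2 ratio -1.16) and BGL2, a wall glucanase, medians of 478 and 2370 CPM (log2 ratio -1.26). CWP1, a mannoprotein, went the other way with medians of 2613 and 109 CPM (log2 ratio 0.92). The summed level was 1492 to 24169 CPM in ICL1-high cells (median 9131 CPM) and 3188 to 33366 CPM in ICL1-low cells (median 15126 CPM). Without Y524 and Y531, 6 of the 14 genes were at least 2-fold lower and the median was -0.98.

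Ribosomal protein genes gave a median log2 ratio of -0.57 over 131 genes, with 29 at least 2-fold higher and 50 lower, beside 41.3% and 27.7% of all genes. Y531 and Y524 had the highest sums, 76358 and 65250 CPM, and without them the counts were 37 and 47 and the median -0.36. With the top cell of either group left out, the median was -0.04. The list took 0.568% to 3.6% of the reads in ICL1-high cells and 1.84% to 7.64% in ICL1-low cells. RPL3 had medians of 122 and 1184 CPM (log2 ratio -0.75) and RPL5 of 13 and 4.58 CPM (log2 ratio -0.91). RPS16B had a log2 ratio of -2.89 that became 1.69 without Y531. Most ribosomal proteins, as well as TDH2 and TDH3, have near-identical copies, and reads that could not be placed in 1 copy were not counted, so the level of a single copy is uncertain.

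Stress genes were mostly within 2-fold. Of 20 compared, 3 were at least 2-fold higher and 1 lower, beside 41.3% and 27.7% of all genes, with a median log2 ratio of 0.28. GRE1, a hydrophilin induced by osmotic stress and starvation, had medians of 17222 and 10694 CPM (log2 ratio 0.63), HSP12, a membrane-protecting heat shock protein, of 8247 and 7976 CPM (log2 ratio 0.41), ALD3, a stress-induced aldehyde dehydrogenase, of 10501 and 8098 CPM (log2 ratio -0.12) and SOD1, the copper-zinc superoxide dismutase, of 2716 and 4236 CPM (log2 ratio -0.33). ALD3 averaged 451 CPM in isotonic cells and the median isotonic cell had 0 CPM of GRE1, below the median of either group of GS cells.

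In the remaining lists, the counts of genes at least 2-fold higher and lower were 9 and 2 of 16 for autophagy and vacuolar proteases (median log2 ratio 1.39), 18 and 10 of 43 for amino acid synthesis (0.36), 4 and 2 of 15 for trehalose and glycogen (-0.16), 5 and 3 of 18 for translation factors (0.52), 4 and 1 of 6 for ribosome biogenesis (3.41) and 1 and 3 of 8 for histones (-0.20). Over all genes compared the shares were 41.3% higher and 27.7% lower with a median of 0.42, and amino acid synthesis lay close to them. For autophagy and for ribosome biogenesis the other measures showed no such difference. CBF5, a higher gene of ribosome biogenesis, had no reads in ICL1-low cells, so its direction followed from the filter. The median share of pairs was 50.5% in each list, and the log2 ratios of the mean summed levels were -0.07 and -0.05. APE3, a vacuolar aminopeptidase, had medians of 869 and 5.99 CPM (log2 ratio 1.87), while PRC1, carboxypeptidase Y, had medians of 5905 and 3763 CPM (log2 ratio -0.59). Of 12 genes each for G1, for G2/M and for daughter cells, 1, 1 and 3 could be compared, and no statement on the cell cycle was possible.

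The genes with the largest ratios were read strongly in a few cells, for a reason that was not tested. The 10 highest that stayed at least 2-fold higher without the highest cell of each group were GTR2, MCT1, ULS1, PCK1, ENT3, LAC1, YFH1, EAF3, IRC24 and LOT5, with log2 ratios of 9.47 to 10.07. They exceeded 100 CPM in 2 to 7 ICL1-high cells and in 0 ICL1-low cells. By pairs they were less divided, with the ICL1-high cell above in 39.4% (LOT5) to 76.0% (ENT3). LOT5 was read in 3 of 13 ICL1-high and 4 of 8 ICL1-low cells. ENT3, an adaptor of clathrin transport, was the broadest of them, above 100 CPM in 7 of 13 cells with a median of 243 CPM, against at most 2.83 CPM in ICL1-low cells. EAF3, a subunit of histone acetyltransferase and deacetylase complexes, passed 100 CPM in 5 cells.

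The 10 lowest by the same rule were ATS1, REC114, SUR2, LPP1, MIP1, VPS51, VLD1, MAS1, RRT8 and RAD14, with log2 ratios of -12.20 to -8.94. They exceeded 100 CPM in 0 ICL1-high cells and in 1 to 3 ICL1-low cells. RRT8, linked to spore wall assembly, had 0 to 5.99 CPM in ICL1-high cells and 0.53 to 6922 CPM in ICL1-low cells, and the ICL1-high cell was above in 13.5% of pairs. ATS1 reached 41144 CPM and REC114, a meiotic recombination gene, 30253 CPM in single cells, both in Y524, and VLD1 and RAD14 each rested on 1 cell, with log2 ratios of -0.98 without Y527 and -0.85 without Y512.

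Among the 22 genes at or above 80% of pairs, 9 were on the lists and 5 were annotated as gag-pol fusion proteins of Ty transposons; these groups were noticed after the values were seen. YBL005W-B had medians of 932 and 11.5 CPM (log2 ratio 4.30) and YGR161C-D of 16.2 and 1.30 CPM (log2 ratio 3.63). Over all 39 transposon entries compared, however, 16 were at least 2-fold higher and 6 lower, beside 41.3% and 27.7% of all genes. Their summed level overlapped, at 1012 to 5157 CPM in ICL1-high cells (median 1892 CPM) and 32.9 to 2425 CPM in ICL1-low cells (median 1831 CPM). Copies of these elements are alike, so a single entry is uncertain. TKL2, a transketolase of the pentose phosphate pathway that was also seen only then, had medians of 3039 and 225 CPM, more than 100 CPM in 12 of 13 and 4 of 8 cells, and a log2 ratio of 2.32.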

How the data were processed

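The authors deposited read counts per gene for each cell. Per the paper's methods and the submitters' processing notes, STAR 2.5.2 placed the reads on the R64 genome and HTSeq counted those with 1 alignment, while RSEM 1.2.31 gave TPM values that were not used here. All values are whole numbers. PCR duplicates cannot be recognised, and the DNA library kits named by the authors (Nextera XT or TruSeq DNA) do not mark strand, so reads of overlapping or antisense genes cannot be told apart. The files held 6420 gene entries and 92 ERCC entries. The 5 summary entries of each file, which belong to no gene, were dropped (no feature and ambiguous reads were 0.600% to 9.72% of reads in the 21 cells). CPM was computed over gene entries alone. Gene symbols came from RefSeq R64 (6019 entries matched).

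ICL1-high cells had more than 100 CPM of YER065C. Log2 ratios used mean CPM with a pseudocount of 1 CPM and were taken over genes with a read in 20% or more of the 21 cells. Because the groups were chosen by a measured gene and each is 1 sample, no test between them was run and no p-value is given. Intervals are 95% exact Poisson or Clopper-Pearson and cover counting error only; the floor for 0 reads is 3 reads per group. The members and gene lists were chosen with earlier results of these data known. The genes named by rule were the 10 highest and 10 lowest ratios that stayed 2-fold without the highest cell of each group. For the lists discussed gene by gene, the 4 members with the highest mean CPM were added. Others were named after their values were seen, among them IDP2, GUT1, JEN1, PUT2, SIP4 and FBP1. Alternatives were other pseudocounts, summaries, thresholds and filters, scaling of summed reads by TMM (edgeR 4.0.16) or DESeq2 1.42.0 size factors, and thinning to 700000 reads. Python 3.11.15 (NumPy 2.4.6, pandas 2.3.3, SciPy 1.17.1, matplotlib 3.10.9) and R 4.3.3 were used, and the measures were tested on simulated data. The result for 1 gene that the rule names is not reported here.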

Additional observations from a re-analysis of the deposited data

Results flagged for a closer look

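In 108 sets of values, each over the cells of 1 group, 22 held a cell far from the rest, and these sets share cells. The criterion used flags about 1 in 20 sets by chance. Most sets were genes named above, some of them named for their values in ICL1-low cells, so the count cannot be set against that rate. The sets were taken over the 8 ICL1-low cells, apart from 1 set over Y501 to Y506. ICL1-high cells were not examined in this way, so where these values lie says nothing on how the groups compare. For genes and summed levels the comparison was made on log2(CPM + 1). The rate of 1 in 20 also does not hold where most cells had 0 reads, as for SDH4 and MCT1, each read in 1 ICL1-low cell. Y531 had 49.3% of its reads on 10 genes, 136 CPM of the summed acetate, ethanol and lactate genes, 63.8 CPM of GRE1, 7.08 CPM of ECI1 and 2.83 CPM each of MCT1 and ENT3. Y524 had 78.4 CPM of the summed autophagy and vacuolar protease genes, 2364 CPM of MDH2, 14515 CPM of PYC2, 30253 CPM of REC114 and 2.80 CPM of PRC1. Y527 had 17553 CPM of ADH2 and 7014 CPM of VLD1. Y508 had 1182 CPM of KGD1, 1620 CPM of HXT3 and 3655 CPM of ATG39. Y512 had 8915 CPM of SDH3, 7400 CPM of RAD14 and 1.97 CPM of RGI1. CAT8 had 1833 CPM in Y511 and SDH4 1.06 CPM in Y516.

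ICL1 was also read in GS cells that the split left out, at a higher CPM than in any isotonic cell. Among Y501 to Y506 it was at 2323 CPM in Y501 and at 0 in the other 5, and among the GS cells numbered from Y2 with at least 10000 reads it was at 9194 CPM in Y215, 509.2 CPM in Y204 and 43.2 CPM in Y205, which had 1 read of it among 23174, as many reads as the one isotonic cell with any. The other 3 of those 6 cells, Y206, Y208 and Y210, had 0 reads.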

How the results depend on the processing

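No paired analysis was possible because no result came from a test and each group counted as 1 sample. The alternatives chosen after seeing the data were the settings without Y524 and Y531 or Y527, each cell left out in turn, the filter on genes above 100 CPM in at least 5 cells, and the cells Y507 to Y518 or Y521 to Y532 alone. A threshold of 50 CPM gives the same groups. Summed reads, TMM or DESeq2 factors and thinning turned round no log2 ratio of a named gene that was at least 2-fold and moved none beyond the spread over cells. At a threshold of 0 CPM, 20 cells were ICL1-high and only Y511 was ICL1-low, so that setting compares with 1 cell. Genes at least 2-fold higher then numbered 1603 and lower 334, against 2015 and 1279 with no detection filter and 187 and 136 among genes above 100 CPM in at least 5 cells. With at least 5 reads per gene the difference in genes detected was 83.5.

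At 0 CPM the list medians moved to 7.21 for gluconeogenesis, 3.35 for acetate, ethanol and lactate use, 2.52 for glucose repression and derepression regulators, 6.77 for peroxisomal fatty acid beta-oxidation, 3.41 for respiratory chain and ATP synthase, 0.71 for glycolysis and fermentation, 1.48 for stress response, 5.67 for autophagy and vacuolar proteases, 3.50 for respiratory growth and mitochondrial, little studied, 4.75 for ribosomal proteins, 6.27 for ribosome biogenesis, 4.77 for translation factors, 4.43 for histones and 1.90 for cell wall, and the log2 ratios that turned round were 11.04 for ATS1, 4.06 for REC114, 9.66 for SUR2, 9.39 for LPP1, 9.41 for MIP1, 8.46 for VLD1, 9.58 for MAS1, 8.21 for RRT8, 8.54 for RAD14, -0.047 for CIT2, 4.33 for PYC2, -0.19 for YAT1, -0.11 for STL1, 4.06 for HXT2, -0.37 for PUT4, 3.50 for FMP16, 4.70 for RPS16B, 2.09 for CCW12 and 0.78 for FBA1. At 200 CPM they were -1.23 for MCT1, -0.46 for MDH3, -0.13 for ADH2, -0.23 for CAT2, -3.83 for ECI1, -4.52 for KGD1, -2.06 for ACS1, -0.98 for ADY2 and -0.16 for YGR161C-D, with list medians of -0.095 for TCA cycle and 0.35 for ribosome biogenesis, and at 500 CPM -0.95 for MCT1, -1.68 for IRC24, -1.57 for MDH3, -0.029 for CAT2, -3.56 for ECI1, -4.24 for KGD1, -1.88 for ACS1, -0.87 for ADY2 and -0.0065 for YGR161C-D, with 0.48 for ribosome biogenesis. With the top cell of either group left out, the medians were 4.15 for gluconeogenesis, 4.09 for peroxisomal fatty acid beta-oxidation and 2.00 for respiratory chain and ATP synthase and the ratios that turned 5.01 for PYC2, 0.31 for HXT2 and 0.17 for RPS16B. By the difference of mean log2(CPM + 1) they were 3.77 for acetate, ethanol and lactate use and 0.36 for ribosome biogenesis and 0.44 for FMP16. In Y507 to Y518 alone the medians were 6.22 for gluconeogenesis and 0.20 for ribosomal proteins, and in Y521 to Y532 alone 4.75 for acetate, ethanol and lactate use, 2.28 for glucose repression and derepression regulators, 2.75 for respiratory chain and ATP synthase, 1.43 for hexose transporters and kinases, 3.77 for respiratory growth and mitochondrial, little studied, 2.90 for translation factors and -0.19 for cell wall. The median was 5.58 for gluconeogenesis among genes above 100 CPM in at least 5 cells and 4.88 for peroxisomal fatty acid beta-oxidation without Y527. Without Y524 and Y531 the ratios that turned were 5.88 for PYC2, 0.40 for FMP16 and 1.48 for RPS16B. With each cell left out in turn, list medians ranged from -0.73 to 3.18 for gluconeogenesis, -0.30 to 3.87 for glucose repression and derepression regulators, -0.38 to 4.88 for peroxisomal fatty acid beta-oxidation and 2.46 to 5.47 for ribosome biogenesis, and single genes that turned from -2.32 to 6.05 for PYC2, -2.67 to 1.34 for HXT2, -2.10 to 0.53 for FMP16 and -4.40 to 1.69 for RPS16B. Glyoxylate cycle and acetate medians ranged from 1.48 to 2.34 and 1.50 to 2.71 in the same way, but that of acetate was 0.45 at a threshold of 200 CPM and 0.44 at 500 CPM. The cause of these changes was not tested.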
